A study of Mus musculus with 14 samples.

Results

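The 10 genes described here transmit or read out bone morphogenetic protein (BMP) signalling in wounded mouse fibroblasts. They are the ligand gene Bmp4, the antagonist gene Grem1, the receptor-regulated Smads Smad1, Smad5 and Smad9, the inhibitory Smads Smad6 and Smad7, and the target genes Id1, Id2 and Id3. They were picked by gene symbol out of 43472 listed genes, with their treated to untreated ratios at 5 h and over 24 h already known, so these ratios are given as descriptions and carry no test. All 10 were listed in both deposited tables and passed the filter on low values, a mean normalised count of at least 10. The question asked of them was whether the lower Smad9 of treated cells came with lower BMP output, read here as the transcripts of BMP target genes.

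Primary fibroblasts were grown from collagenase-digested tail tips of C57BL/6 mice, and the cell layer of every group was wounded with a scratch. Untreated cells received no extract, and AMG-treated cells received autologous micrograft (AMG), which is minced and filtered mouse skin diluted in the growth medium, which held fetal bovine serum. The study's methods add a centrifugation to remove cells from the AMG, a step that the labels of these libraries do not mention. Replicate 1 was collected untreated and treated at 1, 5, 12 and 24 h (8 libraries), while the untreated and treated cells of replicates 2, 3 and 4 came from 5 h alone (6 libraries). The labels name no group given the suspension buffer alone, and they do not say whether the replicates came from separate mice, so the p-values below measure only the spread between these libraries.

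Library depth ranged from 12545537 to 34696529 reads in genes, and the floor, set at 3 reads, was worth 1.62 to 5.22 normalised counts. The 2 tables were scaled separately, so levels were not compared across them. All 8 fibroblast markers were detected, and their summed normalised count at 5 h was 441600.2 to 615235 in the untreated and 345770.3 to 448049 in the treated libraries of replicates 2 to 4. The 8 endothelial markers, from a cell type rich in BMP-responsive transcripts, summed to 29.7 to 252 in those untreated and 14.0 to 125 in those treated libraries, with Emcn at 0 in all 6. Tek, the endothelial marker that passed the filter, had a log2 fold change at 5 h of -2.08 (SE 1.89). Its limma Benjamini-Hochberg adjusted p was 0.533, or 0.0103 with the replicate number in the fit. The part of the endothelial markers in the results below was not tested. The 6 keratinocyte markers summed to 15.3 to 41.8 in those untreated and 31.2 to 52.2 in those treated libraries, with Krt5, Krt14, Krt1 and Dsg3 at 0 in all 6. Of 6 leukocyte markers 5 were found, and they summed to 162 to 1257 untreated and 202 to 1108 treated, with Lyz2 at 978 and 916 in replicate 4 and at 76.6 to 158 in replicates 2 and 3. The part of these markers in the results was not tested either. The cultures themselves differed by replicate number: Thy1 was at 14712 and 14412 in replicate 3 and at 1068 to 1723 in the others, and the cartilage collagen Col2a1 reached 21940 and 12336 in replicate 2. Col2a1 is 1 of 7 bone and cartilage markers, which summed to 533 to 23490 untreated and 520 to 13454 treated. Bglap was at 0 in all 6 libraries and Sp7 in the untreated ones. Of those past the filter, Ibsp had a log2 fold change at 5 h of 3.50 (SE 0.93). Col2a1 (-0.61, SE 1.97), Acan, Sox9 and Alpl lay below 0. The part of the bone and cartilage markers was not tested. Genes for ribosomal proteins took 6.77% of the reads in the untreated 5 h library of replicate 1, 4.92% in its treated 1 h library and 2.18% to 3.34% in the other 12.

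BMP ligands bind paired type I and type II receptor kinases, and the type I receptors phosphorylate Smad1, Smad5 and Smad9, which enter the nucleus with the shared partner Smad4. Among the best known direct targets are the Id genes, whose products block basic helix-loop-helix transcription factors, and the inhibitory Smads Smad6 and Smad7, which feed back on the receptors. Secreted antagonists such as Gremlin 1 bind the ligands before they reach the receptor, and BMP signalling of skin fibroblasts is best known for its part in hair follicle and mesenchymal differentiation programmes.

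The promoter windows below are those of the 4 members whose treated libraries all lay below the untreated ones at 5 h, and of Atoh8, the BMP target whose ratios were most like those of Smad9. They were taken from RefSeq on GRCm38.p6 and run 5′ to 3′ on the strand of the gene, from 250 bases before the RefSeq transcription start to 10 bases after it. The windows of Id2 and Id3 lie inside the gene spans given below, which are from GENCODE and begin further upstream. Positions of motifs in these windows hold for the RefSeq start. Capitals mark GGCGCC, a BMP Smad binding motif, and GTCT or its reverse complement AGAC, the Smad box. The windows lie at chr3:54755332-54755591 (Smad9, plus strand), chr9:64022050-64022309 (Smad6, minus strand), chr12:25096083-25096342 (Id2, minus strand), chr4:136143572-136143831 (Id3, plus strand) and chr6:72235568-72235827 (Atoh8, minus strand).
Smad9: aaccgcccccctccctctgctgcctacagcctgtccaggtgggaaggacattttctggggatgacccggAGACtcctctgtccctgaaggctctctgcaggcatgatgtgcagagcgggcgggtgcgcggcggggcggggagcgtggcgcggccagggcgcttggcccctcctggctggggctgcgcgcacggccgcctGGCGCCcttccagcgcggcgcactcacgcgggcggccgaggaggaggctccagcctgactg
Smad6: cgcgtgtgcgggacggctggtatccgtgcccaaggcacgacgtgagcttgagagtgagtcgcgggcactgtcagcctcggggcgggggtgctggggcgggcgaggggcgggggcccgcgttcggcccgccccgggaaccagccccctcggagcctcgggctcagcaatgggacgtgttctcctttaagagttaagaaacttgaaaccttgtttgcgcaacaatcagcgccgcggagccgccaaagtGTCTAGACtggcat
Id2: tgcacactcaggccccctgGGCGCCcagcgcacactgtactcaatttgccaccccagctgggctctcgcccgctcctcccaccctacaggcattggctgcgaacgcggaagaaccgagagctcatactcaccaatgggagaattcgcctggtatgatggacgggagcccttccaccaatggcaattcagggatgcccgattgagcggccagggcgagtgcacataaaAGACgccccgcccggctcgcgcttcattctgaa
Id3: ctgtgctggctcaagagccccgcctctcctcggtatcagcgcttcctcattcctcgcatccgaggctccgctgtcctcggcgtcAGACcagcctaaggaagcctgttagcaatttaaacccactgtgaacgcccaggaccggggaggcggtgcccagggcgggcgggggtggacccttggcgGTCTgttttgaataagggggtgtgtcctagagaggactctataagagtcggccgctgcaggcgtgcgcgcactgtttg
Atoh8: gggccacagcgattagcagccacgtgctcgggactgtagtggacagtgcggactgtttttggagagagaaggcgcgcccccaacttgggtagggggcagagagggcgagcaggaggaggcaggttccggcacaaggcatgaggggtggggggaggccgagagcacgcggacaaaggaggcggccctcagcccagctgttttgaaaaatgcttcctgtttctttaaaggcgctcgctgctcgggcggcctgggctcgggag

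The motif GGCGCC, which reads alike on both strands, stood at -51 to -46 from the start of Smad9 and at -231 to -226 from that of Id2, and was present in 9.96% of the 32851 promoter windows of this length. GTCTAGAC, a palindrome that joins both Smad boxes and overlaps each of them, stood across the start of Smad6 at -4 to 4 and was present in 0.177% of windows. GTCT or AGAC occurred in 84.0% of windows, so its presence in those of Smad9, Smad6, Id2 and Id3 is common. Of the 8 members with a window, 4 held GGCGCC (Grem1, Id2, Smad5 and Smad9), and 7 held a Smad box. The window of Atoh8 held none of these letters, and a match is a description of the letters, not of a bound site.

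At 5 h in replicates 2 to 4, treated cells held 10.97% of the untreated Smad9 transcripts, 24.7% of the Smad6, 23.3% of the Id2 and 52.2% of the Id3 transcripts by group means, and their libraries did not overlap the untreated ones for any of these 4 genes. Bmp4 and Id1 were lower in each treated library than in its untreated partner, but their groups overlapped. Grem1 was higher in each, without overlap. Smad1, Smad5 and Smad7 overlapped between the groups, with Smad5 and Smad7 slightly higher in each treated library of these pairs. In bulk RNA, fewer cells expressing a gene and less RNA per cell cannot be told apart. The plot of the 6 libraries shows every value on the scale of normalised counts per kilobase.

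**Figure D1:**
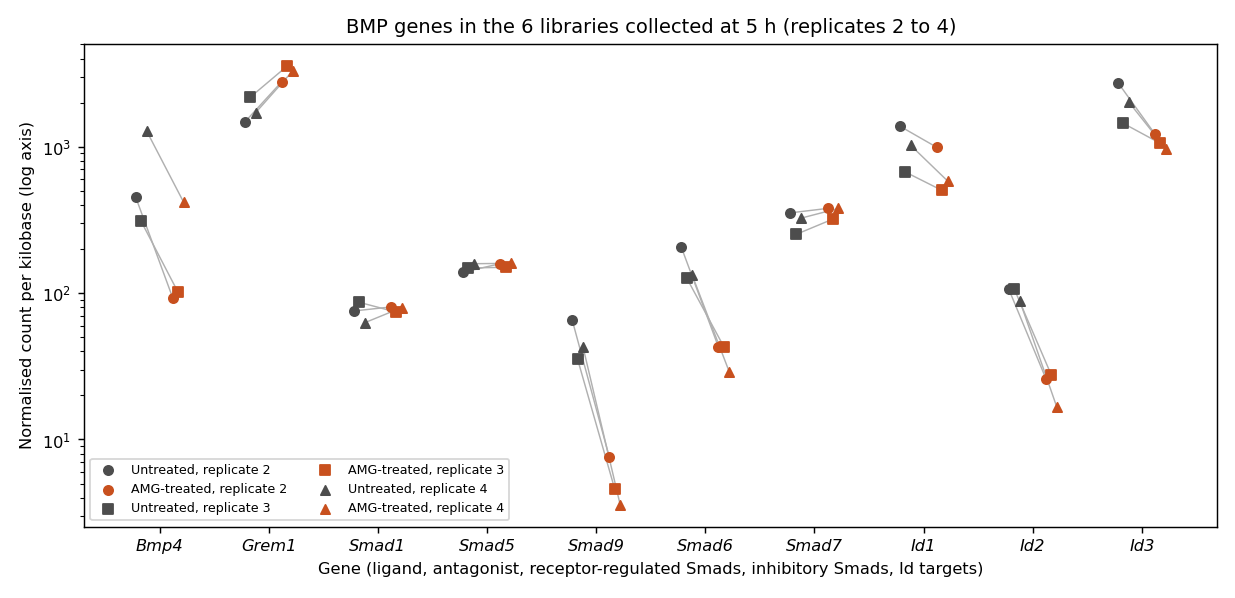
Normalised counts per kilobase of exon (log axis) of the 10 genes in 3 untreated (grey) and 3 AMG-treated (orange) libraries at 5 h, 1 symbol per library and a line joining libraries with the same replicate number. The treated points of Smad9, Smad6, Id2 and Id3 lie below all untreated points and those of Grem1 above them.

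Among the signals, Bmp4 (chromosome 14, 46383520 to 46390669, minus strand) encodes a BMP ligand. Its normalised count was 1022, 698 and 2890 in untreated replicates 2, 3 and 4 and 209, 227 and 940 in the treated ones. Replicate 4 was the highest in both groups, so the groups overlapped although each treated library was the lower of its pair. The log2 fold change, fitted with limma on log2(normalised count + 1), was -1.84 (SE 0.72, n = 3 per group, 95% interval -3.54 to -0.14). With the replicate number as a term in the fit (the replicate block), the interval narrowed to -2.17 to -1.51. The annotation places Gm15217 and Gm15222 on the opposite strand of Bmp4, and the strand setting of the counting is not given in the sources used here.

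Grem1 (chromosome 2, 113746164 to 113758646, minus strand) encodes Gremlin 1, a secreted BMP antagonist. It was at 6115, 9035 and 7095 in the untreated libraries and at 11555, 14789 and 13692 in the treated ones. All treated libraries lay above all untreated ones, and the group mean was 180% of the untreated mean. The log2 fold change was 0.86 (SE 0.18, 95% interval 0.43 to 1.29, or 0.65 to 1.07 with the replicate block).

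Of the receptor-regulated Smads, which carry the signal from receptor to nucleus, Smad1 (chromosome 8, 79338395 to 79399518) was at 473, 542 and 393 untreated and at 504, 464 and 499 treated. Smad5 (chromosome 13, 56703010 to 56742377) was at 1030, 1103 and 1179 untreated and at 1179, 1113 and 1186 treated. Neither gene separated the groups, with log2 fold changes of 0.07 (SE 0.16, 95% interval -0.31 to 0.45) for Smad1 and 0.07 (SE 0.11, 95% interval -0.20 to 0.34) for Smad5. Without untreated replicate 4 the value of Smad1 was -0.05. The intervals of both genes leave out a change of the size seen for Smad9.

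Smad9 (chromosome 3, 54755582 to 54801257, plus strand) encodes the Smad also known as Smad8, the third of the receptor-regulated Smads of the BMP branch. Its normalised count was 352, 189 and 229 in untreated replicates 2, 3 and 4 and 40.7, 24.6 and 19.20 in the treated ones, the latter from 32, 30 and 17 reads. The highest treated library lay well under the lowest untreated one. The log2 fold change was -3.16 (SE 0.37, 95% interval -4.04 to -2.28), with ratios of -3.08, -2.89 and -3.51 in the individual pairs.

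With Smad9 separate and Smad1 and Smad5 overlapping, the make-up of the receptor-regulated Smad transcripts differed between the groups. Per kilobase, Smad9 made up 23.4%, 13.05% and 16.1% of the sum of Smad1, Smad5 and Smad9 in the untreated libraries and 3.07%, 2.00% and 1.47% in the treated ones. The means were 17.5% ± 5.33 and 2.18% ± 0.815 (SD, n = 3 each). The share of Smad5 was 54.9% ± 5.26 untreated and 65.2% ± 0.762 treated. The sum of these Smads was 272 ± 7.86 normalised counts per kilobase in untreated and 240 ± 9.63 in treated cells, so Smad9 was the minor member in both groups. In replicate 1 the untreated share was lower, at 3.47%, 6.87%, 8.79% and 7.61% after 1, 5, 12 and 24 h, against 0.674%, 0.239%, 5.11% and 2.51% in treated cells. The treated share was the lower of each of the 7 pairs, as the bars by library show, and a share within a library does not depend on how the tables were scaled. It restates the values of Smad1, Smad5 and Smad9, so it is no separate support for the lower Smad9.

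**Figure D2:**
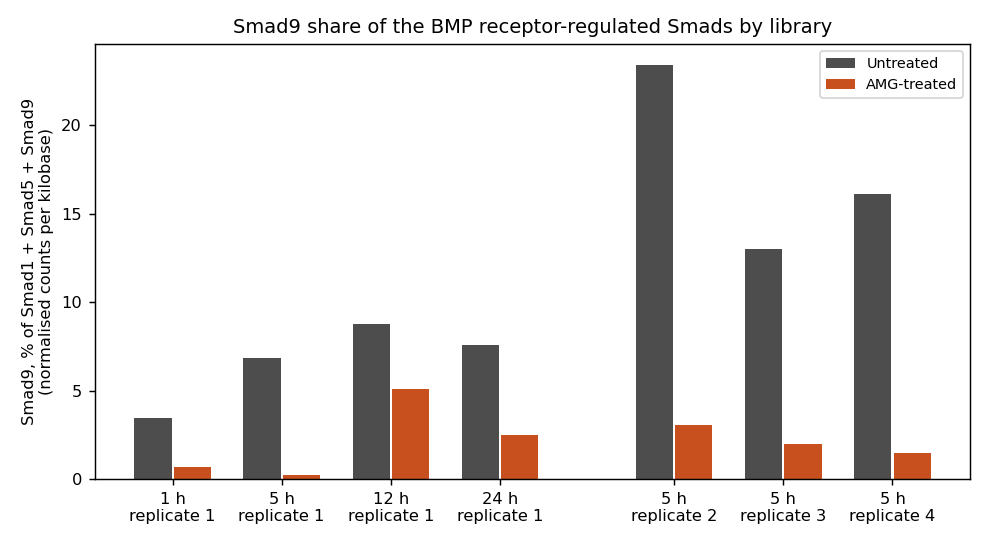
Share of Smad9 in the summed Smad1, Smad5 and Smad9 transcripts (percent of normalised counts per kilobase, axis from 0) in each of the 14 libraries, untreated in grey and AMG-treated in orange. Untreated bars of replicates 2 to 4 reach 13.05% to 23.4% and treated bars 1.47% to 3.07%.

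The inhibitory Smads did not move together. Smad6 (chromosome 9, 63953076 to 64022059, minus strand), which blocks BMP receptors and Smads in preference to those of TGF-beta, was at 660, 405 and 424 untreated and at 137, 138 and 92.6 treated. Its groups were separate, with a log2 fold change of -1.996 (SE 0.27, 95% interval -2.63 to -1.37). Smad7 (chromosome 18), which inhibits both branches, was at 1598, 1138 and 1472 untreated and at 1714, 1450 and 1713 treated, so its groups overlapped. Its log2 fold change was 0.22 (SE 0.16, 95% interval -0.16 to 0.61), and each treated library was slightly the higher of its pair.

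The Id genes differed in degree. Id2 (chromosome 12, 25093799 to 25097140) was at 259.6, 260.4 and 217 untreated and at 63.6, 67.2 and 40.7 treated, with a log2 fold change of -2.11 (SE 0.26, 95% interval -2.73 to -1.497). Id3 (chromosome 4, 136143497 to 136145755) was at 4914, 2586 and 3615 untreated and at 2183, 1886 and 1733 treated, with a log2 fold change of -0.90 (SE 0.24, 95% interval -1.46 to -0.33, or -1.19 to -0.60 with the replicate block). Both genes were lower in every treated library than in any untreated one. Id1 (chromosome 2, 152736251 to 152737410) was at 1607, 781 and 1189 untreated and at 1150, 583 and 677 treated. Its groups overlapped, and the log2 fold change of -0.57 (SE 0.34) had a 95% interval of -1.37 to 0.23, or -0.82 to -0.32 with the replicate block. Of the 3 Id genes, Id1 was the one whose libraries overlapped.

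By the fit over 13096 genes, 3 members (Smad9, Smad6 and Id2) were lower past an adjusted p of 0.05, where 0.267% of all genes were, and 0 were higher, where 0.97% were. Leaving out a library ended these calls in most cases: 0 members were lower without any one of 4 libraries, 1 without untreated replicate 3 and 3 without AMG-treated replicate 3. With the replicate block 6 members (Smad9, Smad6, Id1, Id2, Id3 and Bmp4) were lower, where 19.3% of all genes were, and 1 (Grem1) was higher, where 17.9% were, and the blocked edgeR fit gave the same counts beside 18.6% and 18.4% of all genes. All 3 treated libraries lay below all 3 untreated ones for 4 members, against 13.6% of all genes, and above them for 1 member, against 15.1%. The median log2 fold change of the members was -0.73, beside -0.02 over all genes. These counts and this median describe genes that were chosen with this comparison known. They are not a test of the members, and nothing is read from their distance to all genes.

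Per kilobase of exon, the order of untreated levels at 5 h was Id3 (2069 ± 651 normalised counts per kilobase, SD, n = 3), Grem1 (1788 ± 358), Id1 (1028 ± 356), Bmp4 (683 ± 526), Smad7 (310.3 ± 52.7), Smad6 (155 ± 44.3), Smad5 (149 ± 10.0), Id2 (101 ± 10.2), Smad1 (74.9 ± 11.9) and Smad9 (47.8 ± 15.8). Of neighbours in this order, the libraries of Id3 and Grem1, of Id1 and Bmp4, of Bmp4 and Smad7, of Smad6 and Smad5, and of Smad1 and Smad9 overlapped, and the others did not. In treated cells Grem1 stood at the top (3217 ± 397 normalised counts per kilobase) without overlap with Id3 (1080 ± 128). At the other end, treated Smad6 (38.2 ± 8.10), Id2 (23.4 ± 5.91) and Smad9 (5.25 ± 2.09) stood below Smad1 (78.1 ± 3.48) and did not overlap one another. The level of the antagonist Grem1 stood above that of the ligand Bmp4 in both groups, at 1788 against 683 normalised counts per kilobase untreated and 3217 against 204 treated.

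At each time point replicate 1 gave 1 untreated and 1 treated library, so the time course has no replicate check, and its 95% intervals cover counting error only. Smad9 was lower in the treated library at each time. The normalised counts, untreated then treated, were 61.5 and 8.69 at 1 h, 85.2 and 3.87 at 5 h, 146 and 102 at 12 h, and 126 and 42.3 at 24 h. The treated values at 1 h and 5 h rested on 5 reads each, against 70 and 52 reads untreated. The log2 ratios were -2.69 (interval -4.49 to -1.53) at 1 h, -4.15 (-6.14 to -3.15) at 5 h, -0.52 (-0.87 to -0.18) at 12 h and -1.56 (-2.08 to -1.10) at 24 h. The difference was already there at 1 h, was least at 12 h, and was larger again at 24 h.

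Smad6 followed a like course at higher counts, with log2 ratios of -0.94, -2.58, -0.87 and -1.13 at 1, 5, 12 and 24 h. Its untreated normalised count was 547, 1067, 836 and 755 at these times, and the treated count 285, 178, 458 and 345. Smad7 ran the other way at 3 of 4 times, with log2 ratios of 0.70, -0.13, 0.33 and 0.49. Its level was highest at 1 h, at 2970 untreated and 4822 treated, and ended at 1064 and 1493 at 24 h. Smad1 (-0.20, 0.26, 0.37 and 0.28) and Smad5 (-0.51, 0.57, 0.29 and 0.02) stayed within 1 log2 unit of the untreated library throughout.

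At 1 h, Id1 and Id2 were not lower in the treated library. Id1 stood at 2924 untreated and 3657 treated at 1 h, then at 7722 and 1041 at 5 h, 2285 and 1530 at 12 h, and 1645 and 1214 at 24 h. Its log2 ratios were 0.32, -2.89, -0.58 and -0.44. Id1 is a short transcript, and after removal of the trend of counts on transcript length in each library its log2 ratio was -0.53 at 1 h and -2.08 at 5 h, the times of the libraries with the high ribosomal protein share. The direction at 1 h therefore changed with that correction.

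Id2 had log2 ratios of 0.34, -2.94, -0.65 and -1.61, from 307, 608, 302 and 329 untreated and 389, 78.1, 192 and 107 treated. The length correction took its ratio at 1 h to 0.01. Id3 was at 3676, 8310, 4795 and 3665 untreated and at 1749, 1211, 3638 and 3820 treated, with log2 ratios of -1.07, -2.78, -0.40 and 0.06. All 3 Id genes thus had their lowest ratio at 5 h, and Id3 was back at the untreated level at 24 h while Id2 was not. In the untreated cells the 3 Id genes and Smad6 were highest at 5 h, in the library with the 6.77% ribosomal protein share, and its part in the ratios was not tested beyond the length correction.

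The signals drifted apart over time. Bmp4 was at 145, 379, 412 and 574 in untreated cells at 1, 5, 12 and 24 h and at 127, 99.0, 77.2 and 137 in treated cells. Its log2 ratio was -0.19 (interval -0.61 to 0.21) at 1 h and -1.92, -2.40 and -2.06 thereafter. Grem1 went from 7610 to 4396 in untreated cells and from 6684 to 28844 in treated cells between 1 and 24 h, with log2 ratios of -0.19, 1.26, 2.62 and 2.71. Neither signal gene thus differed by much at 1 h, when Smad9 was lower on 5 treated reads. With the length correction the 1 h ratio was -0.59 for Bmp4 and -0.15 for Grem1. With 1 pair at 1 h, the order of these differences was not tested.

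**Figure D3:**
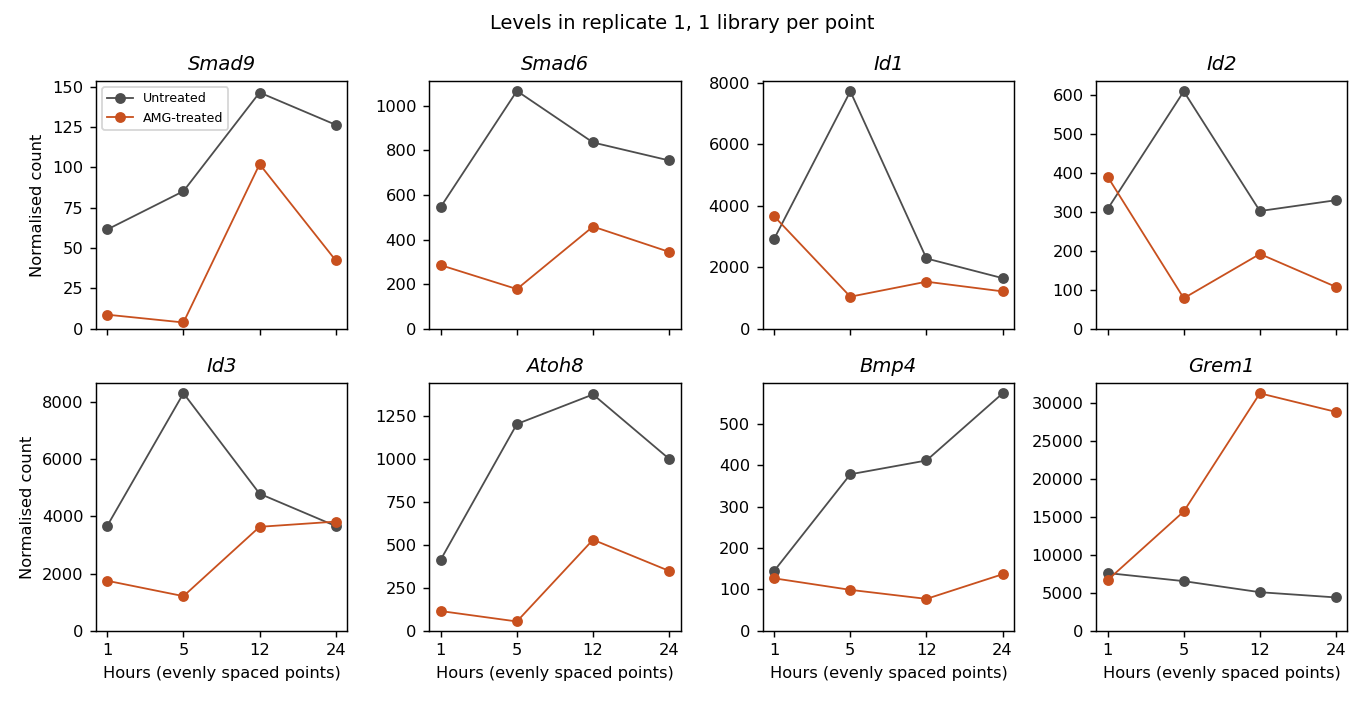
Normalised counts in replicate 1 at 1, 5, 12 and 24 h (evenly spaced, axes from 0, 1 library per point) of untreated (grey) and AMG-treated (orange) cells. Smad9 and Atoh8 are lower in treated cells at each time, the Id genes are furthest apart at 5 h, and Grem1 parts from the untreated line after 1 h.

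**Figure D4:**
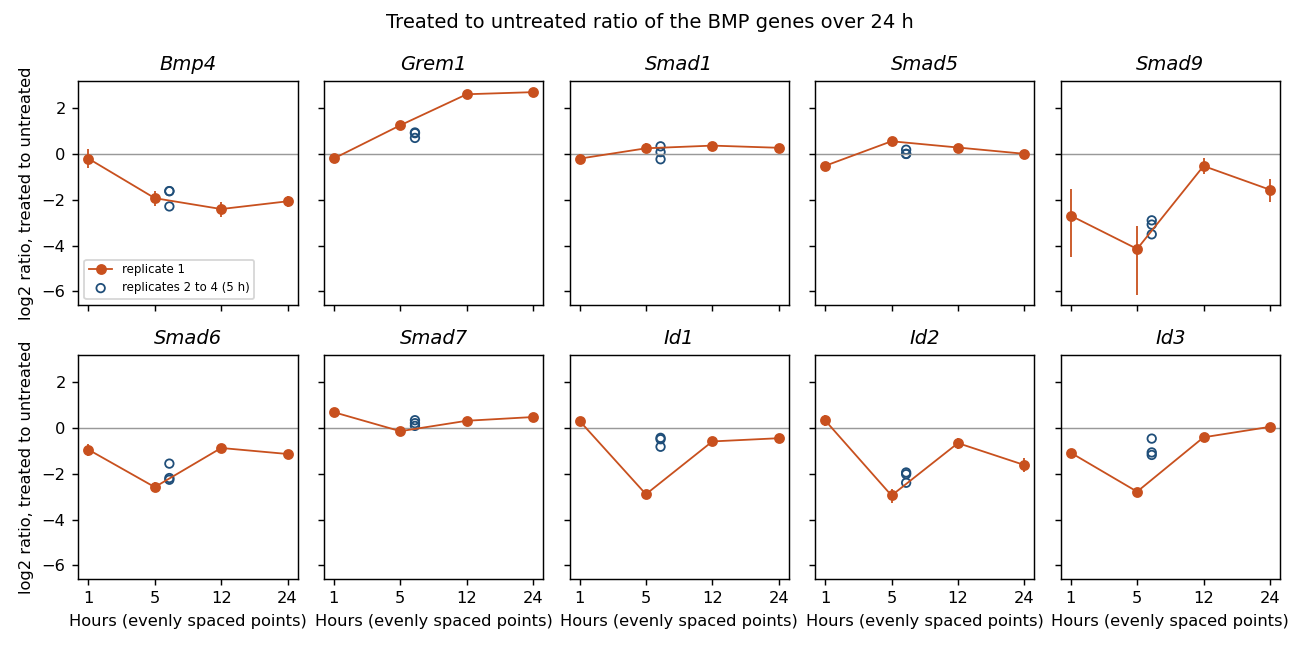
Log2 ratio of treated to untreated (normalised count + 1) in replicate 1 over time (orange, lines are 95% counting intervals of the reads) and in replicates 2 to 4 at 5 h (open blue circles). Smad9, Smad6 and Bmp4 lie below 0 in all 7 pairs, and the 5 h ratio of Id1 in replicate 1 (-2.89) lies away from the other 3 (-0.81 to -0.42).

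Across the 4 pairs at 5 h, Smad9, Smad6, Id1, Id2, Id3 and Bmp4 were lower in each treated library, a pattern that 16.0% of the 12844 genes kept in both tables shared, and Smad5 and Grem1 were higher in each, as were 15.7% of genes. Smad9, Smad6 and Bmp4 were lower in all 7 pairs, as were 5.68% of genes. At a log2 ratio below -1 in replicate 1, the counts of members were 2 at 1 h (10.7% of all genes), 6 at 5 h (12.6%), 1 at 12 h (6.9%) and 4 at 24 h (8.05%). Only Grem1 exceeded a log2 ratio of 1, at 5 h (13.3% of all genes), 12 h (5.93%) and 24 h (6.05%), and 0 members did at 1 h (11.3%). The libraries are those from which the members were known, so nothing further is read from these counts.

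The pathway was then followed in 64 further genes with fixed roles, of which 51 passed the filter at 5 h. In the limma fit with Benjamini-Hochberg adjustment over all genes, 0 of the 51 passed in either direction, with 16 (31.4%) at an unadjusted p under 0.05, beside 23.1% of all genes. The edgeR quasi-likelihood test on recovered reads also called 0, and DESeq2 called 11 lower and 1 higher. With the replicate block limma called 18 lower (35.3%) and 8 higher (15.7%), beside 19.3% and 17.9% of all genes, so the higher calls were no more frequent than over all genes. The median log2 fold change of the 51 genes was -0.23, beside -0.02 over all genes, and 34 of 51 (66.7%) lay below 0, beside 51.6% of all genes. The plot of pathway genes by role gives each value with its interval.

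**Figure D5:**
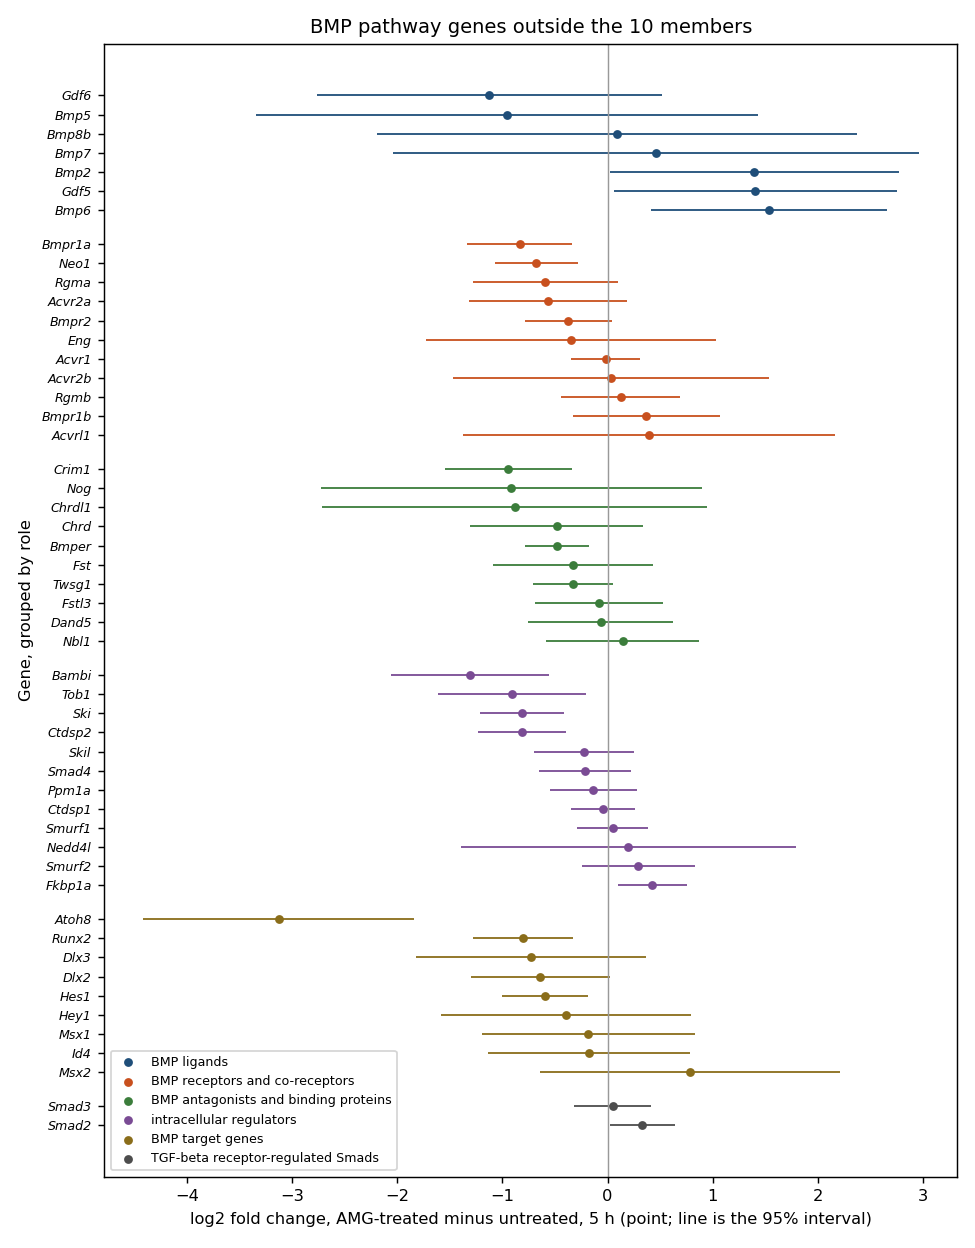
Log2 fold change at 5 h (AMG-treated minus untreated, n = 3 each) of the 51 tested BMP pathway genes outside the members, coloured by role, with 95% limma intervals. Atoh8, at -3.13, stands apart from the other target genes, which lie between -0.81 and 0.79.

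Of the 11 listed BMP target genes outside the members, 9 were tested, 8 of them lay below 0, and their median log2 fold change was -0.60. Limma called 0 in either direction, and with the replicate block 4 lower and 1 higher, beside 19.3% and 17.9% of all genes. Atoh8, which encodes a basic helix-loop-helix transcription factor, was at 1693, 1171 and 1042 in untreated replicates 2, 3 and 4 and at 136, 331 and 66.6 in the treated ones. Its groups were widely separate. The log2 fold change was -3.13 (SE 0.54), with a limma Benjamini-Hochberg adjusted p of 0.0524, which was 0.000223 with the replicate block and ranged from 3.71e-06 to 0.220 over the alternatives, 8 of which passed the threshold.

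Runx2, the transcription factor of the osteoblast lineage, was at 733 ± 86.7 untreated and 424 ± 103 treated (SD, n = 3). Its log2 fold change was -0.81 (SE 0.20, limma Benjamini-Hochberg adjusted p = 0.0987, 0.00578 with the replicate block, and 0.00553 to 0.375 over the alternatives). The target list thus leaned lower without passing the test outside the blocked fits and a few others. The one target above 0 was Msx2, a homeobox gene, at a log2 fold change of 0.79 (SE 0.60, limma Benjamini-Hochberg adjusted p = 0.459, 0.0108 with the replicate block, and 0.00656 to 0.802 over the alternatives). It is the 1 higher call of the blocked fit. In replicate 1 at 5 h both genes lay on the other side of 0, with log2 ratios of -0.63 for Msx2 and 0.31 for Runx2. Msx2 was named after its value was seen.

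Of 13 listed ligand genes 7 were tested, with a median log2 fold change of 0.46, 0 called by limma, and 3 higher and 0 lower with the replicate block, beside 17.9% and 19.3% of all genes. Gdf5, a ligand of joint and cartilage formation, was at 86.7 ± 51.6 untreated and 238 ± 151 treated (log2 fold change 1.41, SE 0.57, limma Benjamini-Hochberg adjusted p = 0.203, 0.000773 with the replicate block, and 0.000475 to 0.469 over the alternatives). Bmp2, a close relative of Bmp4, was at 48.6 ± 29.8 untreated and 121 ± 57.6 treated (log2 fold change 1.40, SE 0.58, limma Benjamini-Hochberg adjusted p = 0.212, 0.00238 with the replicate block, and 0.00215 to 0.484 over the alternatives). The groups overlapped for both genes, although each treated library was the higher of its pair. In replicate 1 Bmp2 went from 815 untreated and 1654 treated at 1 h to 33.7 and 149 at 24 h, with log2 ratios of 1.02, 2.20, 2.83 and 2.12, so Bmp2 was higher in the treated library of all 7 pairs. Among ligands named after their values were seen, Gdf6 (log2 fold change -1.13, SE 0.69) and Bmp5 (-0.96, SE 1.01) were below 0, on the side of Bmp4. Their limma Benjamini-Hochberg adjusted p was 0.360 and 0.597. Each was lower in the treated library of all 7 pairs, but Bmp5 hardly differed at 1 h. Its log2 ratio there was -0.015 (counting interval -0.71 to 0.65), or 0.007 with the length correction. The counting interval of Bmp5 also spanned 0 at 5 h in replicate 1 (-1.03 to 0.62), and lay below 0 at 12 and 24 h.

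Of 12 listed receptor and co-receptor genes 11 were tested, with a median log2 fold change of -0.35, 0 called by limma, and 4 lower and 1 higher with the replicate block, beside 19.3% and 17.9% of all genes. Bmpr1a, a type I BMP receptor, was at 1947 ± 77.6 untreated and 1121 ± 343 treated (log2 fold change -0.84, SE 0.21, limma Benjamini-Hochberg adjusted p = 0.101, 0.00316 with the replicate block, and 0.00285 to 0.321 over the alternatives). Its libraries did not overlap. Acvr1, another type I receptor, was at 1403 ± 172 and 1382 ± 115, a log2 fold change of -0.02 (SE 0.14) whose direction changed with the length correction.

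Of 14 listed antagonists and binding proteins 10 were tested, 9 lay below 0, and the median log2 fold change was -0.41. Limma called 0, and with the replicate block 6 lower and 0 higher, beside 19.3% and 17.9% of all genes. Nbl1, of the DAN family of antagonists, was at 5198 ± 1600 untreated and 5799 ± 1950 treated (log2 fold change 0.14, SE 0.31). It differed by less than its spread and changed direction under some alternatives. Crim1, a membrane protein that binds BMPs, was at 2957 ± 484 untreated and 1574 ± 469 treated (log2 fold change -0.94, SE 0.25, limma Benjamini-Hochberg adjusted p = 0.1103, 0.000387 with the replicate block, and 0.000246 to 0.310 over the alternatives). Its libraries did not overlap, and the treated library was the lower of all 7 pairs. Grem1, at a log2 fold change of 0.86 with its groups separate, stood on the other side of 0 from most of these antagonists.

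All 12 listed intracellular regulators were tested, with a median log2 fold change of -0.18, 0 called by limma, and 4 lower and 2 higher with the replicate block, beside 19.3% and 17.9% of all genes. Fkbp1a, which encodes FKBP12, a protein bound to resting type I receptors, was at 6967 ± 268 untreated and 9422 ± 1263 treated (log2 fold change 0.43, SE 0.14, limma Benjamini-Hochberg adjusted p = 0.144, 0.0119 with the replicate block, and 0.00994 to 0.567 over the alternatives). Its treated libraries all lay above the untreated ones, but in replicate 1 at 5 h its log2 ratio was -0.30. Smurf2, a ubiquitin ligase for Smads and receptors, had a log2 fold change of 0.29 (SE 0.23, limma Benjamini-Hochberg adjusted p = 0.462, 0.0360 with the replicate block, and 0.00436 to 0.817 over the alternatives). Among genes named after their values were seen, Bambi, a pseudoreceptor that dampens BMP and TGF-beta receptors and is itself a BMP target, was at 157 ± 32.5 and 63.8 ± 20.4 (log2 fold change -1.31, SE 0.32, limma Benjamini-Hochberg adjusted p = 0.0941, 0.00190 with the replicate block, and 0.00157 to 0.306 over the alternatives). This feedback gene lay with Smad6 below 0, and its libraries were separate.

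The receptor-regulated Smads of the TGF-beta branch served as a comparison for Smad9. Smad2 was at 999.7 ± 71.5 untreated and 1260 ± 121 treated (log2 fold change 0.33, SE 0.13, limma Benjamini-Hochberg adjusted p = 0.192, 0.0223 with the replicate block, and 0.00260 to 0.446 over the alternatives). Smad3 was at 2118 ± 104 and 2212 ± 414 (log2 fold change 0.05, SE 0.15), and its direction changed with upper quartile rescaling. All treated libraries of Smad2 lay above all untreated ones, as for 15.1% of all genes, and those of Smad3 overlapped. Neither had a lower treated group.

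The genes whose treated to untreated ratios were most like those of Smad9 were ranked by the root mean square difference in log2 ratio over the 7 pairs, among 12843 genes. Atoh8 was the nearest, at 0.675 log2 units, with ratios of -1.84, -4.45, -1.37 and -1.52 at 1, 5, 12 and 24 h in replicate 1 and -3.63, -1.82 and -3.95 in the 5 h pairs of replicates 2, 3 and 4. Next came Apol7a (1.15), of the apolipoprotein L family, the ceramide synthase gene Cers1 (1.17), Smad6 (1.20) and the vasopressin receptor gene Avpr1a (1.23), of which Apol7a and Cers1 had mean normalised counts of only 17.3 and 13.7 in the table of replicates 2 to 4. Id2 ranked 16. The nearest gene was thus a BMP target with a far higher level than Smad9, and the pairs of one table share their normalisation, so the ranking is a description.

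At 24 h in replicate 1, 7 of 10 BMP target genes outside the members that passed the filter there had a log2 ratio below -1 (8.05% of all genes did), with a median of -1.35, beside 0.02 over all genes. At 5 h 4 of the 10 were below -1 (12.6% of all genes), at 12 h 3 (6.9%) and at 1 h 1 (10.7%). Atoh8, the lowest of them in ratio at 5 h, was at 1203 untreated and 54.2 treated at 5 h and at 1000.1 and 348 at 24 h. Of the 10, 9 lay below 0 at 24 h. Among the member targets at that time, Id2 (-1.61) and Smad6 (-1.13) were also below -1. Id1 was at -0.44, Id3 at 0.06 and Smad7 at 0.49. All of these values rest on 1 library per group.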

How the data were processed

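The 14 libraries were stranded poly(A) RNA-seq. Per the labels and the study's methods, the authors aligned single-end reads to mm10 with TopHat2 2.0.13, kept unique alignments, counted them per gene with HTSeq 0.5.3p3 and normalised them with DESeq. Annotation release and strand setting are not given in the sources used here, so genes that overlap, antisense ones included, are counted with some doubt. Each deposited value is a normalised signal, the gene's read count over one size factor per library, made separately for the table of replicate 1 (8 libraries) and that of replicates 2 to 4 (6 libraries). Dividing by the smallest step gave whole reads for 100% of values within a tolerance of 0.1.

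Groups and replicate numbers came from the sample titles. The members, the gene lists and the tests were chosen with earlier results of these data known. Treated and untreated libraries of replicates 2 to 4 were compared at 5 h with limma 3.58.1 (R 4.3.3; lmFit, eBayes with trend) on log2(value + 1), which understates the change of low genes, over 13096 genes with a mean of at least 10. Calls needed a Benjamini-Hochberg adjusted p under 0.05. The files hold normalised values, so limma took the place of the authors' count model. On recovered reads, edgeR 4.0.16 called 28 genes lower and 107 higher, limma 35 and 127. Other pseudocounts, filters and scalings, a length correction, DESeq2 1.42.0 and leaving out each library were the alternatives. Only the limma fit without the block was tested on simulated counts. Those counts held no replicate effect, so they cannot show how any fit behaves with one. Same-numbered libraries deviated together (r = 0.65, 0.76 and 0.70, against -0.59 to 0.12 for different numbers), so the numbers pair the libraries. The replicate block is given beside each member or pathway gene described by its fold change at 5 h whose call it changes. Genes named only by their replicate 1 values, such as Chrdl1, Chrd, Acvr2a, Hes1 and Bmp6, are given without it, although it changes the call of these 5. Intervals in replicate 1 are exact for the ratio of reads and cover counting error only. Positions and exon lengths are from GENCODE on GRCm38, the assembly named mm10 in the labels. Every member was named, with 2 genes per pathway list by highest mean unless genes passed the test, and the 5 genes most like Smad9. One item of the lists is not reported here and was left out of them.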

Additional observations from a re-analysis of the deposited data

Results flagged for a closer look

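Of 32 groups of 4 values searched for a library far from the other 3 (chance gives about 1 in 20 such groups), 2 had one, both of Id1. In the untreated cells at 5 h, the library-size scaled level of Id1 was 341 CPM in replicate 1, against 44.7 to 89.5 CPM in replicates 2 to 4. The log2 ratio of treated to untreated Id1 at 5 h was -2.89 in replicate 1 and between -0.81 and -0.42 in the others. That untreated library also had the highest share of reads in ribosomal protein genes (6.77%), and with the length correction the ratio was -2.08. The part of the library in this value was not tested further.

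For 4 members the only pair at 1 h lay on the other side of 0 from all 4 pairs at 5 h. The log2 ratio at 1 h was -0.51 for Smad5 (0.01 to 0.57 at 5 h), 0.32 for Id1 (-2.89 to -0.42 at 5 h), 0.34 for Id2 (-2.94 to -1.94 at 5 h) and -0.19 for Grem1 (0.71 to 1.26 at 5 h). With 1 pair at 1 h, the difference between the times was not tested. For Id1 the length correction placed the 1 h ratio at -0.53, on the same side as 5 h, and for Id2 at 0.01. Smad5 and Grem1 stayed below 0 with it, at -0.22 and -0.15. The share of all genes with such a change of side was not counted, so it is not read as particular to these members.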

How the results depend on the processing

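The replicate block, the fit in which same-numbered libraries are paired, moved the counts of genes past the threshold at 5 h most. Members lower went from 3 to 6 with the block in limma, in edgeR and with the length correction added (chosen after seeing the data), and members higher from 0 to 1, 1 and 2. Pathway genes outside the members went from 0 lower and 0 higher to 18 and 8 with the block in limma and in edgeR, and to 18 and 10 with the length correction added. All genes went from 35 lower and 127 higher to 2527 and 2345 (limma), 2436 and 2416 (edgeR) and 2110 and 2333 (with the length correction). DESeq2 called 1 member higher, 11 pathway genes lower and 1 higher, and 580 and 854 of all genes. Limma without the trend called 56 genes higher. Pseudocount 10, all genes above 0, and edgeR on 4 replicates each called 1 pathway gene lower, Atoh8. Leaving out 1 library gave 0 to 3 members lower, 0 to 1 higher, 0 to 8 pathway genes lower and 0 to 1 higher, and 0 to 1054 of all genes lower and 1 to 1146 higher. The upper ends came without AMG-treated replicate 3, and leaving out any of the other 5 libraries left 0 members lower, or 1 without untreated replicate 3. Of 190 alternative fold changes of the members at 5 h, 1 turned sign (Smad1, -0.05 without untreated replicate 4) and 4 moved by more than the spread. In replicate 1, 4 of 160 alternative ratios turned sign: Id1 and Smad1 at 1 h (-0.53 and 0.04 with the length correction), Id3 at 24 h (-0.11 with it) and Smad5 at 24 h (-0.04 with upper quartile rescaling). Besides that of Id1, 19 ratios, the turned ones of Smad1 and Id3 included, lay outside their counting interval, among them Smad9 at 5 h (-2.78 with pseudocount 10), whose treated library held 5 reads. Small fold changes turned sign: Acvr1 to 0.029 with the length correction, with or without the block, to 0.14 with edgeR on 4 replicates, and from -0.11 to 0.069 without 1 library; Nbl1 to -0.047 with the length correction, with or without the block, and from -0.094 to 0.41 without 1 library; and Smad3 to -0.00067 with upper quartile rescaling and from -0.099 to 0.15 without 1 library. The cause of these moves was not tested. The share of Smad9 stayed within the spread under every alternative run (14.1% untreated and 1.68% treated by longest transcript). Depth limits Smad9 most, with as few as 5 reads in a library.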

Other observations

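Later in the time course, pathway genes outside the target list also differed between the libraries of replicate 1. At 24 h, 13 pathway genes outside the members had a log2 ratio below -1 and 7 above 1, of 52 kept, beside 8.05% and 6.05% of all genes. The genes below were named after their values were seen, and with 1 library per group they carry no test. Secreted antagonists were among the lower ones: Chrdl1 was at 394 untreated and 81.9 treated, Chrd at 683 and 205, and Nog at 158 and 29.7 normalised counts, with log2 ratios of -2.25, -1.73 and -2.38. Grem1 (2.71) and Nbl1 (0.85) lay above 0. Of the receptors, Acvr2a, an activin and BMP type II receptor, was at 757 and 238 (log2 ratio -1.67), while the type I receptor Bmpr1b was at 168 and 358 (1.08) and the co-receptor Rgmb at 284 and 898 (1.66). Among ligands, Bmp7 was at 1.53 untreated and 37.8 treated, from 2 and 42 reads (log2 ratio 3.94, 95% counting interval 2.68 to 7.72, or 2.05 with pseudocount 10 and 4.54 with 0.1), the untreated value lying under the floor of 3 reads, Bmp6 at 47.5 and 126 (1.39), and Gdf6 at 189 and 63.9 (-1.55). Hes1, a Notch and BMP target, was at 836 and 1734 at 1 h and at 797 and 260.1 at 24 h, so its log2 ratio went from 1.05 to -1.61.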
